A study of Mus musculus with 4 samples.

Results

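Glycolysis and hypoxia-induced genes were followed in mouse CD4+ T cells that had lost STAT3 or STAT5 while being driven towards the Th17 fate, the helper T cell type that makes IL-17. The set was a fixed list of 37 genes, chosen with earlier results of these data known. Each gene was read from 1 probe set that names no other gene, the brightest of them by its average across the arrays. Of the 37 listed genes, 34 had such a probe set, out of 18194 genes with a value in the whole series. For Bnip3l, each of its 3 probe sets also names a pseudogene, so it was left out, and Gpi1 and Eno1 were not analysed here. The member listed as Ero1l is called Ero1a below, its current name. Every one of the 34 members lay above 6.20, the median of all deposited values and the level treated as background, on all 4 arrays, so none entered through a single high array. The members fall into 23 genes of glucose handling, called glycolysis members, and 11 other hypoxia-induced genes.

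The 4 groups had 1 array each. STAT3-deficient cells carried CD4-Cre, a Cre recombinase driven by the promoter of Cd4, with a floxed stat3 allele (stat3 fl/fl). STAT3 wild-type cells were stat3 fl/fl without Cre. STAT5-deficient cells carried CD4-Cre with stat5 fl/fl, and STAT5 wild-type cells were stat5 fl/fl without Cre. All mice were C57BL/6J with OT2, a transgenic T cell receptor, so the controls shared the receptor and a floxed locus. The labels give no age or number of mice, and Cre under the Cd4 promoter acts in all T cells that have expressed Cd4. Sorted naive cells (CD44-, CD62L+) were stimulated for 72 h with antibodies to CD3 and CD28 in the presence of TGF-β at 2 ng/ml, IL-6 at 20 ng/ml and an antibody to IL-4. The STAT3-deficient and STAT3 wild-type cultures also held an antibody to IL-2 at 10 µg/ml, whereas the STAT5-deficient and STAT5 wild-type cultures held IL-2 at 100 IU/ml.

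Activated T cells take up glucose through membrane transporters, split it to pyruvate in glycolysis and export much of it as lactate. Many enzymes of that route are induced by hypoxia-inducible factor 1 (HIF-1), whose α subunit is encoded by Hif1a and is destroyed when prolyl hydroxylases sense oxygen. The same factor induces genes outside glycolysis, such as Vegfa, Bnip3 and the hydroxylase gene Egln3, and Hif1a is known to be needed for full Th17 differentiation of mouse T cells.

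With 1 array per group there is no replicate check and no p-value, and precision is limited by how few arrays there are. Levels are deposited values read as log2, a difference is a subtraction of 2 levels, and a difference of 1 or more in size (2-fold) is called higher or lower. In these bulk samples, fewer expressing cells and less RNA per cell cannot be told apart. Over all 12440 genes compared, the median difference was -0.20 without STAT3, 0.06 without STAT5 and 0.06 between the wild types. Centring each array on its own median moved these medians to 0.04, 0.00 and 0.25, since it adds 0.24 to every difference without STAT3, -0.06 to every one without STAT5 and 0.19 to every one between the wild types. Differences are as deposited unless called centred. Without STAT3, 8 members lie above 0 once centred, Pfkm, Gapdh, Pgk1, Eno2, Ldha, Gbe1, Kdm3a and Ankrd37, and only Pfkm does as deposited. The share of called genes that were lower moved with it, being 71.8% as deposited, 53.4% centred and 56.3% with loess centring without STAT3, and 55.7%, 27.8% and 55.1% between the wild types. The genotype labels of both Cre-carrying samples end in the words wild type, against their titles. Stat3 stood at 9.93 in STAT3-deficient and 12.87 in STAT3 wild-type cells, Stat5a at 5.91 in STAT5-deficient and 10.92 in STAT5 wild-type cells, and Stat5b at 6.09 in STAT5-deficient and 11.33 in STAT5 wild-type cells. Stat3 thus still read above background on its deficient array, whereas Stat5a and Stat5b read under it. The targeted transcripts were therefore not lowered equally, and the arrays do not measure protein. Of the CD4 T cell markers, 9 of 10 had a value, and these lay between 10.88 and 13.35 on every array. Markers of other cells had list means of at most 7.04, 7.47, 7.02 and 6.95 in STAT3-deficient, STAT3 wild-type, STAT5-deficient and STAT5 wild-type cells, the highest list being the CD8 pair. Of the markers with a value, 2 of 2 CD8, 2 of 5 B cell and 3 of 7 myeloid ones passed the background level on some array. The CD8 marker Cd8b1 lay between 7.70 and 8.06 and the myeloid marker Csf1r between 7.12 and 7.73. No NK or erythroid marker passed it, with a value for 2 of 4 in each list. The part of other cells in the results was not tested.

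Most members stood lower on the deficient array of both pairs. The 11 hypoxia-induced members had medians of -0.60 without STAT3 and -1.16 without STAT5, against -0.43 and -0.20 for the 23 glycolysis members. Single members overlapped, with the glycolysis members Slc2a3 at -1.65 and Aldoc at -1.60 without STAT5. A further 28 hypoxia-induced genes outside the set had medians of -0.41 and -0.23. Without STAT5, 9 of 34 members (26.5%) were lower by at least 2-fold, against 1.74% of all genes compared, and 0 were higher (1.86% of all genes). These were the glucose transporter gene Slc2a3, the glycolytic genes Aldoc and Eno2, and the hypoxia-induced genes Egln3, Bnip3, P4ha1, P4ha2, Mxi1 and Ero1a. Without STAT3, 3 of 34 (8.82%) were lower, Egln3, P4ha2 and the lactate exporter gene Slc16a3, which is close to the 7.23% of all genes, and 0 were higher (2.85% of all genes). The median member differed by -0.46 without STAT3 (-0.22 centred) and by -0.36 without STAT5 (-0.42 centred).

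The deletion comparisons share no array, but they differ in more than the deleted gene. The STAT3 pair had IL-2 neutralised and the STAT5 pair had IL-2 added. In any contrast between the pairs, here or elsewhere, the deleted gene and the culture cannot be told apart. In both deletion comparisons, 28 of 34 members (82.4%) lay below 0, against 30.0% of all genes. With arrays centred the count was 23 of 34 (67.6%), against 24.9%. Egln3 and P4ha2 passed 2-fold in both (0.547% of all genes), and 10 members passed 1.5-fold in both (2.09% of all genes): Slc2a1, Slc2a3, Aldoc, Vegfa, Egln3, Bnip3, P4ha1, P4ha2, Mxi1 and Ndrg1. For 16 of 34 members (47.1%) both deficient arrays lay below both wild-type arrays, a pattern seen in 16.1% of all genes. That count is as deposited and was not made with arrays centred. It compares levels across pairs, and the array medians ran from 6.10 (STAT3-deficient) to 6.34 (STAT3 wild type). Both deficient samples carried CD4-Cre and both wild types lacked it. In falls shared by the pairs, loss of a STAT and presence of Cre cannot be told apart. Across the 34 members the Pearson correlation between the deletions was 0.52 and the Spearman correlation 0.44, against 0.08 and 0.11 over all genes. It was 0.74 and 0.73 over the 11 hypoxia-induced members and 0.15 and 0.19 over the 23 glycolysis members. These correlations are across genes of the same 4 arrays, which are not independent replicates.

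**Figure D1:**
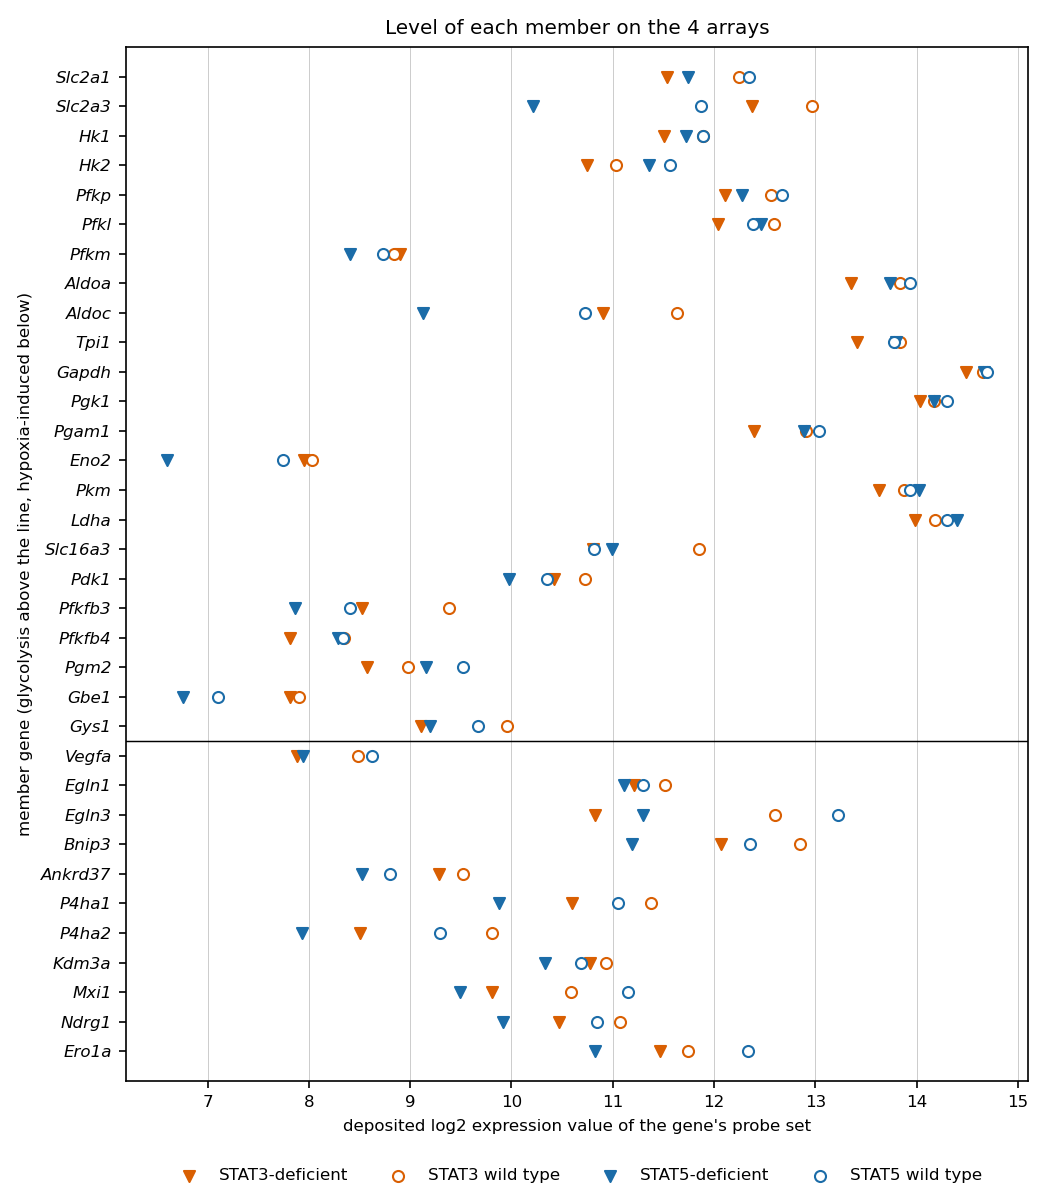
Level of each of the 34 members on the 4 arrays, as the deposited log2 value of the probe set used (x axis), with glycolysis members above the horizontal line and hypoxia-induced members below it. Filled triangles are STAT3-deficient (orange) and STAT5-deficient (blue) cells and open circles their wild types; for Egln3 the triangles sit at 10.82 and 11.30 and the circles at 12.60 and 13.22, and distances between different genes carry no meaning because each has its own probe set.

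Egln3 encodes the prolyl hydroxylase PHD3, an oxygen-sensing enzyme that is itself a HIF target. Its level was 10.82 in STAT3-deficient and 12.60 in STAT3 wild-type cells, and 11.30 in STAT5-deficient and 13.22 in STAT5 wild-type cells. Both deficient arrays were thus low and both wild types high, and the gene fell by 1.78 (3.43-fold, -1.53 centred) without STAT3 and fell by 1.92 (3.80-fold) without STAT5. Its other probe set differed by -2.12 and -2.05. Among all 12440 genes this difference held rank 251 from the lowest without STAT3 and rank 47 without STAT5. Egln1, which encodes PHD2, the main oxygen sensor of most cells, stood at 11.21 in STAT3-deficient and 11.52 in STAT3 wild-type cells and at 11.11 in STAT5-deficient and 11.30 in STAT5 wild-type cells. The differences of -0.31 (-0.06 centred) and -0.19 were well short of 2-fold, so the hydroxylase genes of the set differed in size of change.

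The collagen prolyl hydroxylase subunit genes lay lower in both deletions too. P4ha2 was at 8.50 in STAT3-deficient and 9.81 in STAT3 wild-type cells, and at 7.93 in STAT5-deficient and 9.29 in STAT5 wild-type cells. It fell by 1.30 (2.47-fold, -1.06 centred) without STAT3 and fell by 1.36 (2.57-fold) without STAT5. P4ha1 was at 10.60 and 11.38 in STAT3-deficient and STAT3 wild-type cells, and at 9.87 and 11.05 in STAT5-deficient and STAT5 wild-type cells. Its difference was -0.78 (-0.54 centred) without STAT3, short of 2-fold, and it fell by 1.18 (2.26-fold) without STAT5, where its other probe set stood at -1.07. For both genes the STAT5-deficient array was the lowest and the STAT3 wild-type array the highest.

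Mxi1, Ero1a and Bnip3 were called in the STAT5 comparison and not in the STAT3 comparison, a contrast between comparisons that was not tested. Mxi1, which encodes an antagonist of Myc that binds Max, was at 9.80 in STAT3-deficient and 10.58 in STAT3 wild-type cells, and at 9.49 in STAT5-deficient and 11.15 in STAT5 wild-type cells. It differed by -0.78 (-0.54 centred) without STAT3 and fell by 1.66 (3.16-fold) without STAT5. Ero1a, an oxidoreductase of the endoplasmic reticulum that drives disulfide formation, was at 11.46 and 11.75 in STAT3-deficient and STAT3 wild-type cells and at 10.82 and 12.33 in STAT5-deficient and STAT5 wild-type cells. Its levels in the STAT3 pair were close, at -0.28 (-0.04 centred), whereas without STAT5 it fell by 1.51 (2.85-fold), with 3 probe sets between -1.56 and -1.25. Bnip3, a mitochondrial membrane protein that marks mitochondria for autophagy, was at 12.07 and 12.85 in STAT3-deficient and STAT3 wild-type cells and at 11.19 and 12.35 in STAT5-deficient and STAT5 wild-type cells. It differed by -0.78 (-0.53 centred) without STAT3 and fell by 1.16 (2.23-fold) without STAT5.

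The remaining hypoxia-induced members stayed inside 2-fold in both deletions. Ndrg1, a stress-induced cytosolic protein, was at 10.47 in STAT3-deficient and 11.07 in STAT3 wild-type cells and at 9.92 in STAT5-deficient and 10.84 in STAT5 wild-type cells, differences of -0.60 and -0.92. Of its 5 probe sets 1 reached -1.32 without STAT5. Vegfa, the angiogenic growth factor, was at 7.88 and 8.48 in STAT3-deficient and STAT3 wild-type cells and at 7.94 and 8.62 in STAT5-deficient and STAT5 wild-type cells, with both deficient arrays below both wild types (-0.60 and -0.68). Kdm3a, a histone demethylase, was at 10.78, 10.94, 10.34 and 10.69 in STAT3-deficient, STAT3 wild-type, STAT5-deficient and STAT5 wild-type cells (-0.16 and -0.35). Ankrd37, an ankyrin repeat protein, was at 9.29 in STAT3-deficient, 9.52 in STAT3 wild-type, 8.52 in STAT5-deficient and 8.80 in STAT5 wild-type cells (-0.24 and -0.28). With arrays centred, Kdm3a and Ankrd37 lay at 0.09 and 0.01 without STAT3, so their direction in that pair depends on the scaling. As a group the 11 genes had 2 lower without STAT3 (median -0.60, -0.36 centred) and 6 lower without STAT5 (median -1.16), with 0 higher in either, against 7.23% and 1.74% of all genes lower in these comparisons.

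**Figure D2:**
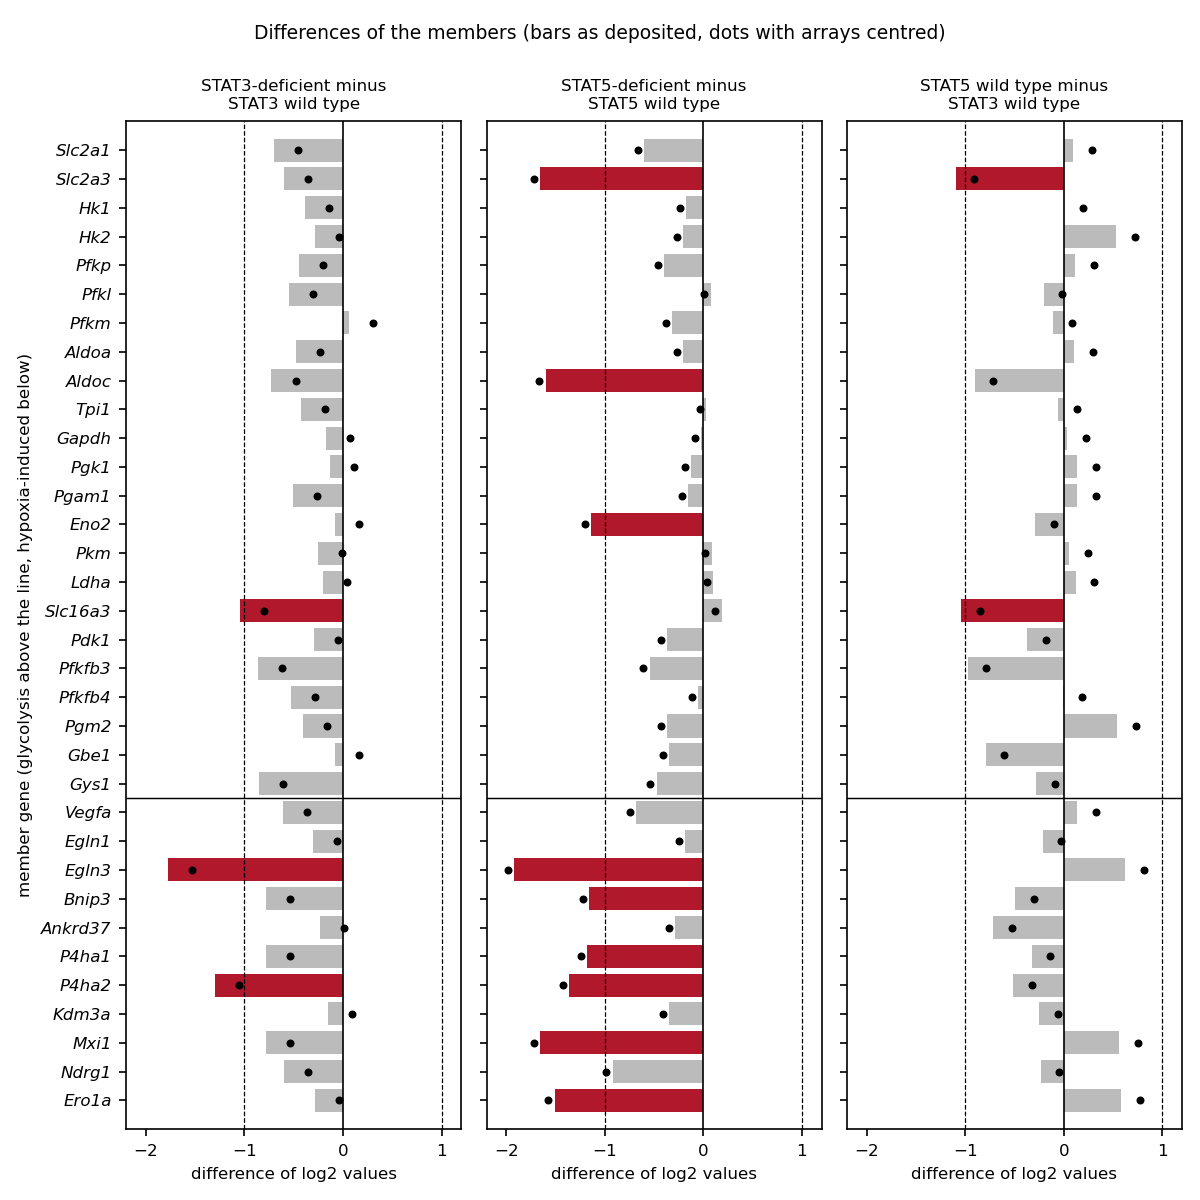
Difference of log2 values of each member in the 3 comparisons (x axis), with bars as deposited, red from 2-fold on, and black dots after centring each array on its median; dashed lines mark 2-fold. In the middle panel 9 members pass the line on the lower side, in the left panel Egln3, P4ha2 and Slc16a3 do, and the dot of Slc16a3 lies inside the line.

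Promoter sequence is shown for members that lay lower together and, for contrast, for Ldha, whose level hardly differed. Each stretch is the 250 bases before a RefSeq start site (GRCm38.p6), written 5′ to 3′ on the strand of the gene, with capitals marking the hypoxia response element core, ACGTG or GCGTG on either strand. They lie at chr12:54203875-54204124 (minus strand) for Egln3, chr11:54100674-54100923 (plus) for P4ha2, chr10:59323046-59323295 (plus) for P4ha1, chr7:138909507-138909756 (minus) for Bnip3 and chr7:46845554-46845803 (plus) for Ldha.
Egln3: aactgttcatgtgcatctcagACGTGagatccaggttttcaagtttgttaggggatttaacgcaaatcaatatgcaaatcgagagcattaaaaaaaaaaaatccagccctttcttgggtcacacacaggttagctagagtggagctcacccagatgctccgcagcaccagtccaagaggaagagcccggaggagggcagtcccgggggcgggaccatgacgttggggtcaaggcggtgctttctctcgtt
P4ha2: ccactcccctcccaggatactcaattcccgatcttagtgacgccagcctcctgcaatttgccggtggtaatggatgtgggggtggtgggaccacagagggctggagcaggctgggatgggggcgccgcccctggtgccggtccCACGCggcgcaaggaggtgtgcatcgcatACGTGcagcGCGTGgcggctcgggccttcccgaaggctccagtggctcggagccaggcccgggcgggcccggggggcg
P4ha1: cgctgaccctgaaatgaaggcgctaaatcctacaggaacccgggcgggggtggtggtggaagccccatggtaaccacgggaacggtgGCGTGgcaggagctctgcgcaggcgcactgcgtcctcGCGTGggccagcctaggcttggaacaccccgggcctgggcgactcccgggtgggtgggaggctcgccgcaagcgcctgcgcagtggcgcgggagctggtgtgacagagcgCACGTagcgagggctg
Bnip3: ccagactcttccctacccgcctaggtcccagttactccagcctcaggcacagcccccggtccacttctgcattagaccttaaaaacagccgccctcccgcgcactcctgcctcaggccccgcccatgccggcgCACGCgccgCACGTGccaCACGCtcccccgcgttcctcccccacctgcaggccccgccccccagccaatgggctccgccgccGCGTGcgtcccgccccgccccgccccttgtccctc
Ldha: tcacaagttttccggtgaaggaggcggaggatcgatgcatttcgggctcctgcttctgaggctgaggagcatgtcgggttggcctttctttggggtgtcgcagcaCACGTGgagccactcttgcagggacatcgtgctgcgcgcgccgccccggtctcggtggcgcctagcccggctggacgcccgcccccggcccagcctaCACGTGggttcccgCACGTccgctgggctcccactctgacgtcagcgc

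The Egln3 stretch held 1 match, which begins 229 bases before the start site, P4ha2 and P4ha1 held 3 each, and Bnip3 and Ldha held 5 each. A palindromic E-box (CACGTG), the site of Myc and Max, counts as 2 overlapping matches, and 1 such box lies in the Bnip3 and 2 in the Ldha window. Whole windows, which add the 50 bases after the start, were available for 32 of the 34 members (48 windows), with none for Slc2a3 and Ndrg1. The core was found in at least 1 window of 28 of these 32 genes (87.5%), against 46.7% of all 27025 genes with a window. By window, the shares were 72.9% for these members and 43.8% of all 32851 promoter windows. A gene with more windows has more room for a match, and the share by gene was not adjusted for that. The members' windows are also richer in G and C, with a median of 62.0% against 52.7%, and the part of base composition in the difference was not tested. Of the called members, Eno2 had no match in its window. The STAT site TTCNNNGAA was found in 3 of the 48 windows (6.25%), those of Aldoc, Kdm3a and Pfkm, against 8.30% of all windows. A match only says that these letters occur there.

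Among the glucose transporter genes, Slc2a3 and Slc2a1 differed in size of change without STAT5. Slc2a3, which encodes GLUT3, was at 12.37 in STAT3-deficient and 12.97 in STAT3 wild-type cells, and at 10.22 in STAT5-deficient and 11.87 in STAT5 wild-type cells. It differed by -0.60 (-0.35 centred) without STAT3 and fell by 1.65 (3.15-fold) without STAT5. Of its 3 other probe sets, 1 was above background on both STAT5 arrays and differed by -1.90, 1 was under it in STAT5-deficient cells and 1 on both arrays. The STAT5-deficient array stood apart at the low end, below the other 3. Slc2a1, which encodes GLUT1, the main glucose transporter of activated T cells, was at 11.54 and 12.24 in STAT3-deficient and STAT3 wild-type cells and at 11.74 and 12.34 in STAT5-deficient and STAT5 wild-type cells. Its differences of -0.70 (-0.46 centred) and -0.60 did not reach 2-fold, although both deficient arrays lay below both wild types in all 3 probe sets.

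A like split was seen between isozymes of the lower pathway. Aldoc, an aldolase best known from brain, was at 10.91 in STAT3-deficient and 11.63 in STAT3 wild-type cells, and at 9.13 in STAT5-deficient and 10.73 in STAT5 wild-type cells. It differed by -0.73 (-0.48 centred) without STAT3 and fell by 1.60 (3.03-fold) without STAT5. Its other probe set was below 6.20 in every group, and averaging both ended the call. Aldoa, the common aldolase, was at 13.35, 13.83, 13.73 and 13.94 in STAT3-deficient, STAT3 wild-type, STAT5-deficient and STAT5 wild-type cells, with differences of -0.48 and -0.20. Eno2, an enolase best known from neurons, was at 7.95 and 8.03 in STAT3-deficient and STAT3 wild-type cells and at 6.60 and 7.74 in STAT5-deficient and STAT5 wild-type cells. It was near 0 without STAT3 (-0.08, 0.17 centred) and fell by 1.14 (2.20-fold) without STAT5, where its level came close to background.

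The other enzymes of the trunk pathway differed little. Hk1 and Hk2, which trap glucose in the cell as glucose 6-phosphate, stood at 11.51, 11.89, 11.72 and 11.90 and at 10.74, 11.03, 11.36 and 11.56 in STAT3-deficient, STAT3 wild-type, STAT5-deficient and STAT5 wild-type cells. Their differences lay between -0.39 and -0.29 without STAT3 and between -0.20 and -0.18 without STAT5. The phosphofructokinase genes encode the enzyme that sets the pace of glycolysis. Pfkp, its platelet-type subunit, was at 12.11 in STAT3-deficient, 12.56 in STAT3 wild-type, 12.28 in STAT5-deficient and 12.67 in STAT5 wild-type cells (-0.45 and -0.40). Pfkl, the liver type, was at 12.04 in STAT3-deficient, 12.59 in STAT3 wild-type, 12.46 in STAT5-deficient and 12.38 in STAT5 wild-type cells (-0.55 and 0.07). Pfkm, the muscle type, was at 8.90 in STAT3-deficient, 8.84 in STAT3 wild-type, 8.41 in STAT5-deficient and 8.73 in STAT5 wild-type cells (0.06 and -0.32). Pfkm was the only member above 0 without STAT3 as deposited. Tpi1, Gapdh, Pgk1, Pgam1 and Pkm, which act from the triose phosphates to pyruvate, lay between -0.51 (Pgam1) and -0.13 (Pgk1) without STAT3 and between -0.15 (Pgam1) and 0.08 (Pkm) without STAT5. Tpi1 was at 13.41 in STAT3-deficient, 13.83 in STAT3 wild-type, 13.80 in STAT5-deficient and 13.77 in STAT5 wild-type cells. As deposited, only its STAT3-deficient level was low, and its difference without STAT3 was -0.18 centred. Pgk1 was at 14.04 in STAT3-deficient, 14.17 in STAT3 wild-type, 14.17 in STAT5-deficient and 14.30 in STAT5 wild-type cells. Pgam1 was at 12.39 in STAT3-deficient, 12.90 in STAT3 wild-type, 12.88 in STAT5-deficient and 13.04 in STAT5 wild-type cells. STAT3-deficient cells were again the lowest as deposited, with a difference of -0.27 centred. Pkm, the pyruvate kinase, was at 13.63 in STAT3-deficient, 13.88 in STAT3 wild-type, 14.02 in STAT5-deficient and 13.94 in STAT5 wild-type cells. Centring left Gapdh at 0.08 and Pgk1 at 0.11 in the STAT3 pair. The value of Gapdh comes from control probe sets of the array. It was 14.49 in STAT3-deficient, 14.66 in STAT3 wild-type, 14.66 in STAT5-deficient and 14.69 in STAT5 wild-type cells, near the highest deposited value of 15.09. Aldoa, Tpi1, Pgk1, Pkm and Ldha also lay high on the scale, and whether differences read smaller there was not tested.

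Pyruvate handling diverged at the lactate exporter. Slc16a3, which encodes the monocarboxylate transporter MCT4, was at 10.80 in STAT3-deficient and 11.85 in STAT3 wild-type cells, and at 11.00 in STAT5-deficient and 10.81 in STAT5 wild-type cells. Only the STAT3 wild-type array was high. The gene fell by 1.05 (2.07-fold) without STAT3, a call lost with arrays centred (-0.81), and differed by 0.18 without STAT5. Ldha, the lactate dehydrogenase subunit that turns pyruvate into lactate, was at 13.98, 14.18, 14.40 and 14.30 in STAT3-deficient, STAT3 wild-type, STAT5-deficient and STAT5 wild-type cells, differences of -0.20 (0.05 centred) and 0.10. Pdk1, a kinase that shuts off pyruvate entry into mitochondria, was at 10.42 in STAT3-deficient, 10.72 in STAT3 wild-type, 9.98 in STAT5-deficient and 10.35 in STAT5 wild-type cells (-0.30 and -0.37).

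The enzymes that set fructose 2,6-bisphosphate, an activator of phosphofructokinase, lay below 0 but inside 2-fold. Pfkfb3 was at 8.52 and 9.38 in STAT3-deficient and STAT3 wild-type cells and at 7.86 and 8.40 in STAT5-deficient and STAT5 wild-type cells. Its differences were -0.86 (-0.62 centred) and -0.55, and its other probe set read close to or under background on all arrays. Pfkfb4 was at 7.82 in STAT3-deficient, 8.35 in STAT3 wild-type, 8.29 in STAT5-deficient and 8.34 in STAT5 wild-type cells (-0.53, -0.29 centred, and -0.05). As deposited, its lowest level was in STAT3-deficient cells. In the glycogen branch, Gys1, the glycogen synthase of muscle and most other tissues, was at 9.10 and 9.95 in STAT3-deficient and STAT3 wild-type cells and at 9.20 and 9.67 in STAT5-deficient and STAT5 wild-type cells, with both deficient arrays lowest (-0.85, -0.61 centred, and -0.48). Gbe1, the branching enzyme, was at 7.82 in STAT3-deficient, 7.90 in STAT3 wild-type, 6.76 in STAT5-deficient and 7.11 in STAT5 wild-type cells (-0.08, or 0.16 centred, and -0.35). Pgm2, of the phosphoglucomutase family, was at 8.58 in STAT3-deficient, 8.98 in STAT3 wild-type, 9.15 in STAT5-deficient and 9.52 in STAT5 wild-type cells (-0.40 and -0.37). The 23 glycolysis members thus had 1 lower without STAT3 (median -0.43, -0.18 centred) and 3 lower without STAT5 (median -0.20), against 7.23% and 1.74% of all genes lower, so that the count without STAT3 was no larger than the background share.

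**Figure D3:**
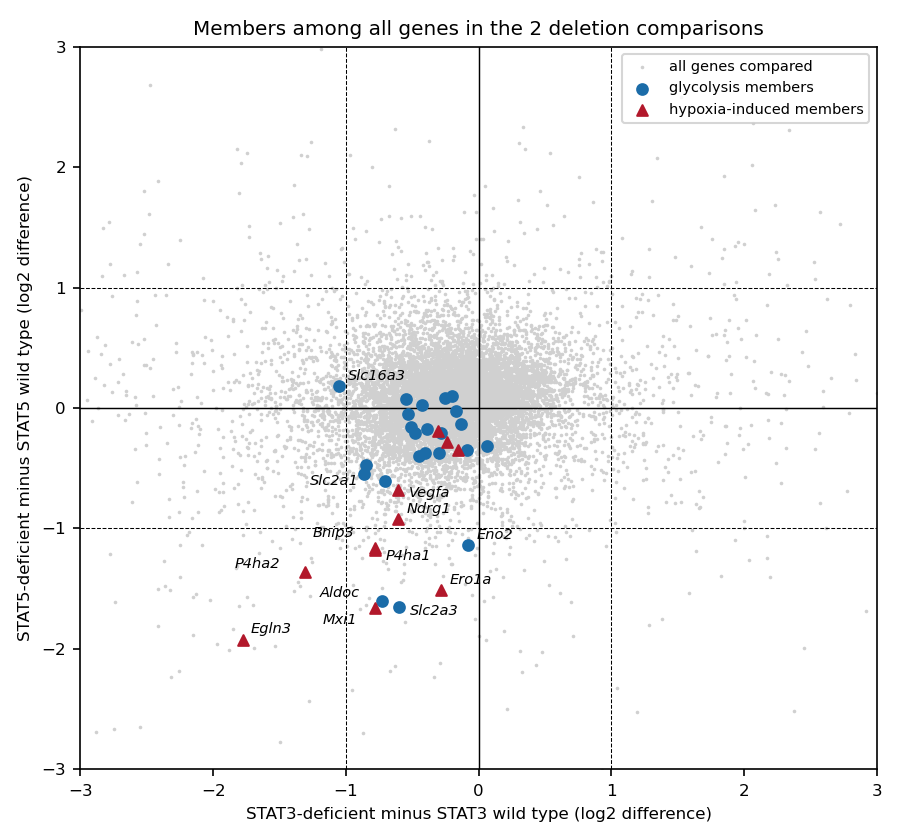
Difference of log2 values without STAT3 (x axis) against that without STAT5 (y axis) for all genes compared (grey), glycolysis members (blue circles) and hypoxia-induced members (red triangles), with dashed lines at 2-fold; 125 genes lie outside the axes. Egln3 and P4ha2 lie in the lower left corner beyond both lines, Slc2a3, Aldoc, Mxi1 and Ero1a lie beyond the lower line alone, and Slc16a3 lies beyond the left line alone.

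Hif1a, the gene of the regulatory subunit, was called in the STAT3 comparison and not in the STAT5 comparison, a contrast that was not tested. It was at 11.85 in STAT3-deficient and 13.44 in STAT3 wild-type cells, and at 13.35 in STAT5-deficient and 13.41 in STAT5 wild-type cells. Only the STAT3-deficient array was low. Hif1a fell by 1.59 (3.02-fold, -1.35 centred) without STAT3, with 3 probe sets between -1.69 and -1.59 and a further one under background in STAT3-deficient cells. It differed by -0.06 without STAT5, with probe sets between -0.48 and -0.06. Its partner gene Arnt differed by -0.13 and 0.03, and Vhl, of the ligase that destroys the α subunit, by 0.11 and -0.05. Siah1a, a ubiquitin ligase gene that acts on the prolyl hydroxylases, fell by 1.22 without STAT3 (-0.97 centred, which ends the call) and differed by -0.96 without STAT5 (-1.02 centred, which passes 2-fold). Cited2, a competitor of HIF-1 for its coactivator, rose by 1.02 without STAT5 (0.96 centred, which ends the call) and differed by -0.27 without STAT3. Of 11 listed HIF regulators 10 were compared, with 2 lower and 0 higher without STAT3 (median -0.22, or 0.03 centred) and 0 lower and 1 higher without STAT5 (median -0.06). Among all genes, 7.23% were lower without STAT3 and 1.86% higher without STAT5.

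A further list of 32 hypoxia-induced genes, none of them members, had 28 genes compared. Without STAT3, 5 were lower and 0 higher (median -0.41, -0.16 centred), and without STAT5, 3 were lower and 0 higher (median -0.23). The shares of all genes lower in these comparisons were 7.23% and 1.74%. Pygl, the liver-type glycogen phosphorylase, was at 6.55 in STAT3-deficient and 7.82 in STAT3 wild-type cells and at 5.06 in STAT5-deficient and 7.50 in STAT5 wild-type cells. It fell by 1.27 without STAT3 and fell by 2.44 without STAT5, with the STAT5-deficient level under background. Selenbp1, a selenium-binding protein, differed by 0.31 without STAT3 and fell by 2.02 without STAT5, again to a level under background. Rragd, a GTPase that relays amino acid signals to mTORC1, differed by 0.18 and fell by 1.40 without STAT5. Plin2, a coat protein of lipid droplets, fell by 1.48 without STAT3 and differed by 0.51 without STAT5.

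Of other glycolytic isozymes, 11 of 15 were compared, with 0 lower and 1 higher without STAT3 (2.85% of all genes higher) and 0 in either direction without STAT5. The exception was Eno3, the muscle enolase, at 11.12 in STAT3-deficient and 7.75 in STAT3 wild-type cells, and at 7.27 in STAT5-deficient and 7.68 in STAT5 wild-type cells. Its rise of 3.37 (10.4-fold) without STAT3 was seen on the single probe set that names it, while the enolase member Eno2 hardly differed in that pair. Slc16a1, a second lactate transporter gene, differed by 0.22 without STAT3 and -0.06 without STAT5.

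Glycogen metabolism genes outside the set had 2 of 12 lower without STAT3 and 1 lower without STAT5, with 0 higher in either. The shares of all genes lower were 7.23% and 1.74%. Ppp1r3b, a subunit that targets a phosphatase to glycogen, fell by 1.41 without STAT3 and fell by 1.09 without STAT5. Ppp1r3d fell by 1.59 without STAT3, with only its wild-type level, 6.21, just above background. In gluconeogenesis, 4 of 7 genes were compared. Pck2, the mitochondrial enzyme that makes phosphoenolpyruvate, rose by 1.05 without STAT3, and Pcx, pyruvate carboxylase, fell by 1.21 without STAT5.

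Few genes of the routes beside and after glycolysis were called. Among all genes, 7.23% were lower and 2.85% higher without STAT3, and 1.74% lower and 1.86% higher without STAT5. Of 10 pentose phosphate genes compared, 0 were called without STAT3 (median -0.23, or 0.01 centred), and 1, Prps1, which makes the sugar precursor of nucleotides, fell by 1.17 without STAT5 (median 0.05). The 10 genes of the pyruvate dehydrogenase complex, its regulators and the pyruvate carrier had 0 called in either deletion (medians 0.03, or 0.28 centred, and -0.01), with Pdk2 farthest at -0.46 and -0.74, above background on the STAT3 wild-type array alone. The 16 tricarboxylic acid cycle genes had 0 called in either (medians 0.05, or 0.29 centred, and 0.08), with Fh1, fumarase, farthest at 0.90 (1.14 centred, which passes 2-fold) and 0.38. Among 21 growth and nutrient regulators, 1 was lower without STAT3 and 0 without STAT5, with 0 higher in either (medians -0.26, or -0.02 centred, without STAT3 and -0.0033 without STAT5). With arrays centred, 14 of the 16 cycle genes and 9 of the 10 pyruvate genes lay above 0 without STAT3, against 6774 of all 12440 genes. The one growth regulator called was Irf4, a factor of activated T cells (-1.14, or -0.89 centred, which ends the call), at -0.80 without STAT5. Myc, which drives glycolytic genes in dividing T cells, was at 11.14 in STAT3-deficient and 11.81 in STAT3 wild-type cells and at 11.33 in STAT5-deficient and 12.03 in STAT5 wild-type cells, lower on both deficient arrays but inside 2-fold (-0.67 and -0.71). Txnip, an inhibitor of glucose uptake, differed by -0.26 and -0.36.

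The wild types compare IL-2 added with IL-2 neutralised, and they also differ in the floxed locus, so the culture and the mice cannot be told apart. This comparison shares its arrays with both others. Of 34 members, 2 were lower in STAT5 wild-type cells (5.88%, against 2.95% of all genes) and 0 higher (2.35% of all genes). The median was -0.08 with 19 of 34 members below 0, 0.11 with 16 below 0 once centred, and -0.27 with 28 below 0 under loess centring, so the direction of the set depends on the scaling. Slc2a3 was at 11.87 in STAT5 wild-type and 12.97 in STAT3 wild-type cells (-1.10, 2.14-fold), and Slc16a3 at 10.81 and 11.85 (-1.04, 2.05-fold). Neither call held with arrays centred, at -0.91 and -0.85, and averaging probe sets also ended that of Slc2a3. Pfkfb3 (-0.98), Aldoc (-0.90), Gbe1 (-0.79) and Ankrd37 (-0.72) were the next lowest. At the other end stood Egln3, at 13.22 in STAT5 wild-type and 12.60 in STAT3 wild-type cells (0.62), Ero1a at 12.33 and 11.75 (0.58), Mxi1 at 11.15 and 10.58 (0.56), Pgm2 (0.54) and Hk2 (0.53). Members that passed 2-fold without STAT5 thus lay on both sides of 0 between the wild types.

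Probe sets of a member mostly moved alike. Of 19 members with several probe sets above background, all of a gene's probe sets had the same sign for 18 without STAT3 (the exception was Pfkfb3, for its probe set near background), 17 without STAT5 (not Gapdh and Tpi1) and 16 between the wild types. Over 5557 genes with several probe sets, the median SD between them was 0.23, 0.17 and 0.21 in those comparisons, which is a spread between probes and not between cultures.

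**Figure D4:**
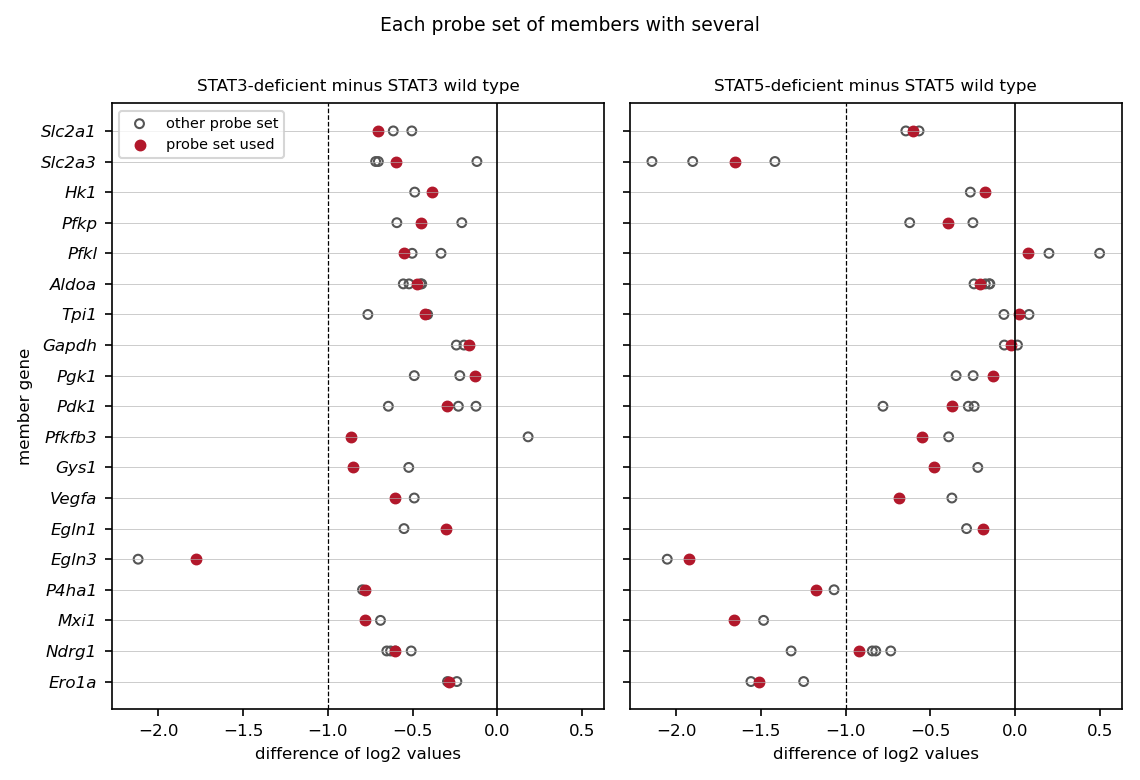
Difference of log2 values of each probe set above background on at least 1 of the 4 arrays, for the 19 members that have several, without STAT3 (left) and without STAT5 (right); the filled point is the probe set used, open points the others, and the dashed line 2-fold lower. Both probe sets of Egln3 lie beyond the line in both panels and those of Slc2a3 lie beyond it in the right panel only, where 2 of its 4 read under background in STAT5-deficient cells.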

How the data were processed

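Total RNA from each culture was biotin-labelled and hybridised to an Affymetrix Mouse Genome array. Per the submitters' processing notes, Affymetrix Power Tools was used, in a version the sources used here do not give. The values the authors deposited run from 2.48 to 15.09 and were read as log2 from that range. No source used here gives the log base, summarisation, background correction or centring, and another base would change every fold change.

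The array has 45101 probe sets, of which 34958 carry a single gene name in the platform annotation, 932 several and 9211 none. Those with a single name gave values for 18194 genes. Genes whose highest value exceeded 6.20 (percentile 50 of all values) were compared, 12440 in all (68.4%). Older names were matched through RefSeq gene synonyms, and promoter windows came from RefSeq (GRCm38.p6). Calculations used Python 3.11.15, pandas 2.3.3 and statsmodels 0.14.6. The selection and calling steps were run on simulated data with little noise and planted differences beyond the threshold. That run checks the code and says nothing about how reliable the calls are.

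The members and lists were chosen with earlier results of these data known. All members were named. Of each other list, up to 4 genes with the largest called differences in a deletion, or else the farthest gene, were named, with Hif1a, Arnt, Vhl, Myc, Txnip and Slc16a1 always. Medians of lists are over members above background. Alternatives were averaged probe sets, probe sets without the suffixes for possible multiple matches, a stricter level (percentile 75, 8.29) or none, array median centring, loess centring (span 0.4) and thresholds of 1.5-fold and 3-fold.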

Additional observations from a re-analysis of the deposited data

How the results depend on the processing

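The 9 members lower without STAT5 stayed at 7 to 9 under every alternative kept at 2-fold, of which the 7 came from probe sets without multiple-match suffixes, where 26 members had a value. Among all genes in that setting, 177 of 10816 were lower. At 1.5-fold the count was 12 of 34, against 644 of all 12440 genes, and at 3-fold 4, against 70. Without STAT3, the 3 lower members became 2 under either centring, against 590 of all 12440 genes with array medians and 621 with loess. At 1.5-fold 13 members were lower, against 2389 of all genes, and at 3-fold 1, against 343. The median member moved to -0.22 with arrays centred, by the construction of that alternative. Between the wild types, the 2 lower members became 1 with averaged probe sets and 1 without multiple-match suffixes. Genes lower there numbered 273 of 11217 and 324 of 10816. With arrays centred 0 members were lower, and with loess centring 4, against 228 and 342 of all 12440 genes. At 1.5-fold 6 were lower and 1 higher, against 1240 and 1344 of all genes. At 3-fold 0 were lower, against 95. Counts at other thresholds differ by construction, and the cause of the other moves was not tested. No called member changed sign under any scaling or probe set alternative. Loess centring left 31 of 34 members below 0 without STAT3, against 26 with array medians and 33 as deposited. A single array per group, unstated processing and no detection calls limit all of these values.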

Other observations

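Between the wild types, most genes of routes beside glycolysis lay above 0, though few passed 2-fold. All 16 tricarboxylic acid cycle genes compared lay above 0 in STAT5 wild-type relative to STAT3 wild-type cells (median 0.42), as did 9 of 10 genes of pyruvate dehydrogenase and the pyruvate carrier (median 0.29) and 9 of 10 pentose phosphate genes (median 0.39), while 6885 of all 12440 genes compared lay above 0 (median 0.06). With arrays centred these lists had medians of 0.62, 0.48 and 0.58, against 0.25 for all genes, of which 8809 lay above 0. The all-gene median as deposited depended on level, being 0.18 for the 7722 genes above the stricter level. Loess centring, which adjusts for level, put it at -0.01 and is not given here for these lists. The part of expression level in their shift was not tested. As deposited, 1 gene of these lists passed 2-fold, Rpia, an enzyme of the pentose phosphate pathway (1.12). With arrays centred, Prps1 (1.08) and the cycle gene Idh3a (1.03) passed it too. The amino acid transporter gene Slc7a5 was at 12.21 in STAT5 wild-type and 9.89 in STAT3 wild-type cells (2.32), and Slc3a2, which encodes its partner chain, at 12.08 and 10.70 (1.38). The further hypoxia-induced list had 2 of 28 genes higher, Tfrc, the transferrin receptor (1.17), and Hmox1, a heme oxygenase (1.40), and 2 lower, Zfp395 (-1.24) and Narf (-1.06, or -0.87 centred), with a median near 0. Among all genes, 2.35% were higher and 2.95% lower. Rpia, Prps1, Idh3a, Slc7a5, Slc3a2, Tfrc, Hmox1, Zfp395 and Narf were picked here after their values were seen.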
